A study of Mus musculus with 2 samples.

Results

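Tnc, Postn, Thbs2 and Fn1 were followed in a pair of mouse skin sections profiled by Xenium, which images probes bound to RNA in tissue and records the position of each molecule it identifies. The 4 genes were taken by name from a panel of 480 genes, and every decoded transcript with a quality score of at least 20 was counted. They gave 65886 of 2875112 gene transcripts in the Utx-cKO section and 93587 of 3540184 in the WT section. The Utx-cKO section is labelled as skin in which Krt14-Cre had removed Kdm6a (Utx), a histone demethylase, from tissue expressing keratin 14, the keratin of basal epithelial cells. Fibroblasts are not a cell type in which that driver is known to act. The WT section is the control. Both sections were cut from fixed, paraffin-embedded whole skin of B6/129 females raised without treatment, and the sources used here give no age, body site or number of animals. With 1 section per genotype there was no replicate, no test was made, and each interval below is a 95% interval for counting error alone, which leaves out differences between animals, sites and slides.

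Tnc encodes tenascin-C, Postn periostin, Thbs2 thrombospondin 2 and Fn1 fibronectin. All are secreted into the extracellular matrix, where fibronectin is assembled into fibrils that cells grip through integrins. The other three belong to the matricellular proteins, which modulate adhesion and signalling more than they bear load. Periostin binds tenascin-C and collagen and is known in skin from the dermis and the hair follicle, tenascin-C from the follicle surroundings and from wounds, and thrombospondin 2 from dermal fibroblasts, where its loss in mice disturbs collagen fibrils.

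After removal of cells with under 20 transcripts, 37395 Utx-cKO and 33263 WT cells remained, with medians of 48 and 62 transcripts. 84.9% of Utx-cKO and 74.7% of WT transcripts lay in a segmented cell. 2 cell identifiers occurred in both sections, and no doublet caller was run. Each section held 4 separate strips of tissue, numbered here by position, which are parts of one section and not replicates. Levels are given as transcripts of a gene per 1000000 panel transcripts of the same cells (CPM), and levels of different genes were not ranked, since probe efficiencies are unknown. The 20 negative control probes averaged 10.9 CPM in Utx-cKO and 5.42 CPM in WT, below the whole-section levels of all 4 genes. The highest control probe had 207 transcripts in Utx-cKO and 128 in WT, beside 1916 and 1485 of Tnc. Levels in small sets of cells were not compared with that probe. Kdm6a itself read 2225 CPM in Utx-cKO and 2781 CPM in WT epithelial cells, a log2 ratio of -0.32 (-0.39 to -0.25), so Kdm6a transcripts were still counted in Utx-cKO epithelium. Whether its probes lie in the deleted part is not stated, and directions below are those between the sections labelled Utx-cKO and WT.

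In such sections, fewer cells of a type and less RNA per cell cannot be told apart in a level over all transcripts. Over whole sections, Tnc was the 1 gene of the 4 that passed a fold of 1.5, with 666 CPM in Utx-cKO and 419 CPM in WT. Its log2 ratio of Utx-cKO over WT was 0.67 (0.57 to 0.77). Fn1 was lower in Utx-cKO, at 7612 CPM against 10081 CPM in WT, a log2 ratio of -0.41 (-0.43 to -0.38). Postn and Thbs2 differed little. Postn had 12543 CPM in Utx-cKO and 13661 CPM in WT, and Thbs2 had 2095 CPM in Utx-cKO and 2274 CPM in WT, each a log2 ratio of -0.12. For comparison, 24.4% of the 475 genes compared were at least 1.5 times higher in Utx-cKO and 3.16% at least 1.5 times lower. The median gene stood at 0.22 on the log2 scale, so relative to it the Tnc ratio came to 0.45 and fell short of the fold.

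No member separated the strips of the sections. Tnc had 538, 316, 666 and 1031 CPM in Utx-cKO strips 1 to 4, against 313, 333, 558 and 522 CPM in the WT strips. The fourth Utx-cKO strip stood highest, while the second lay among the WT values. Without strip 4 of Utx-cKO the log2 ratio of Tnc was 0.39, under the fold of 1.5. Fn1 ranged over 5975 to 10822 CPM in the Utx-cKO strips and 5831 to 12752 CPM in the WT strips. Over all genes, 5.26% had every Utx-cKO strip above every WT strip, and 0.211% had every one below.

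Cells were clustered on the other panel genes, leaving out the 4, so that no cluster was built from the genes described. 16 clusters resulted. Clusters 1, 4 and 13, led by genes such as Sfrp2, Pdgfra, Lum and Mfap4, were called fibroblast-like. The follicle epithelium comprised an upper hair follicle-like cluster led by Sprr1a and Krt79, a cluster led by Serpinb11, Lhx2 and Tbx1, and a smaller one led by Krt17 and Lhx2. The last 2 carried only 2 of the fixed follicle markers among their leading genes and therefore keep the names of genes. The remaining epithelium was suprabasal keratinocyte-like, granular keratinocyte-like and sebocyte-like, with 1 cluster led by Dct and Sostdc1. Leading genes of the last also included the cell cycle genes Mki67, Top2a and Cdk1, the T cell gene Cd3e, and the basal markers Krt5 and Col17a1. That cluster is not to be read as 1 cell type. The suprabasal-like name rests on leading genes such as Krt1 and Krt77, and basal markers were also high in that cluster. They summed to 153651 CPM in Utx-cKO and 178153 CPM in WT, beside 130358 CPM and 123389 CPM for suprabasal markers. The cluster is thus not to be read as suprabasal cells alone. A small non-epithelial cluster led by Lef1, Inhba and Apcdd1, with medians of 19.4 µm in Utx-cKO and 12.8 µm in WT to the nearest keratinocyte, had too few markers for a name.

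The 4 genes divided into a fibroblast pair and a pair shared between follicle epithelium and mesenchyme. Fibroblast clusters held 62.9% of the Fn1 transcripts in Utx-cKO cells and 64.1% in WT cells. They held 62.0% of Thbs2 in Utx-cKO and 55.4% in WT. Postn came from epithelium, fibroblasts and other cells. Follicle clusters held 40.4% of its Utx-cKO and 37.1% of its WT counts, and fibroblasts 30.2% in Utx-cKO and 31.9% in WT. Clusters neither epithelial nor fibroblast-like held 4633 of 29533 Postn transcripts in Utx-cKO cells and 8681 of 36719 in WT cells. Among them, a cluster called adipocyte-like held 1503 in Utx-cKO and 4560 in WT, at 16996 CPM in Utx-cKO and 21383 CPM in WT. Epithelium held 58.4% of the Tnc counts in Utx-cKO and 66.0% in WT, and fibroblasts 13.0% in Utx-cKO and 11.7% in WT. In Utx-cKO Tnc read 725 CPM both in epithelial cells and over all kept cells, so its epithelial share was that of the panel. In WT it read 733 CPM in epithelial cells and 532 CPM over all kept cells. Follicle clusters stood above both, at 1392 CPM in Utx-cKO and 1734 CPM in WT. The Lef1 and Inhba cluster, with 126 Tnc transcripts in Utx-cKO and 24 in WT, is not among the fibroblasts here.

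**Figure D1:**
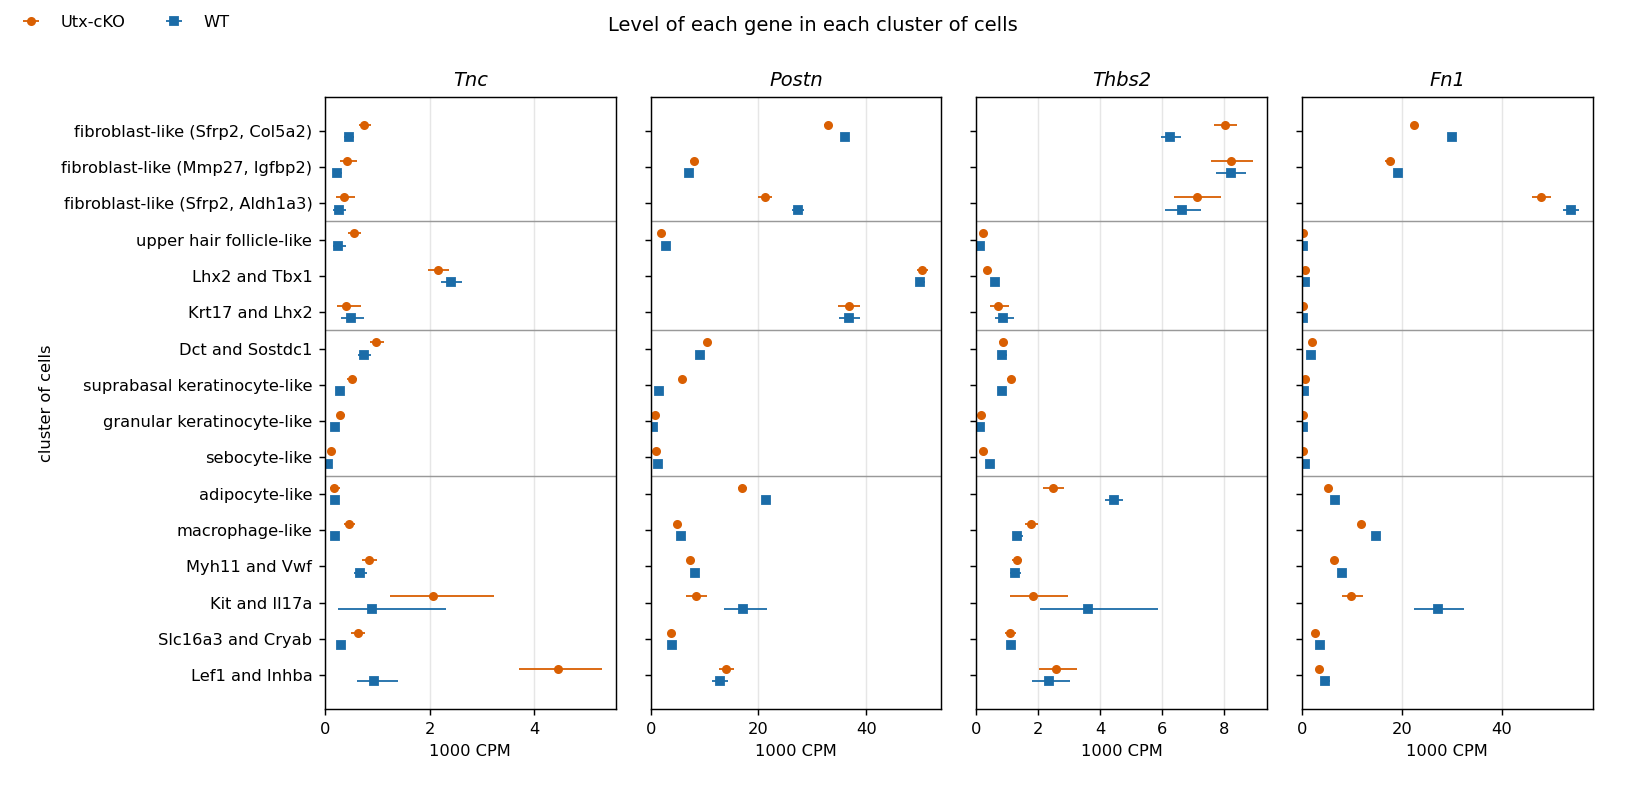
Level of each gene in each cluster of cells, in units of 1000 CPM, with Utx-cKO as circles drawn above WT as squares; bars are exact 95% Poisson intervals, and grey lines part fibroblast, follicle, other epithelial and other clusters. Thbs2 stands highest in the fibroblast-like clusters, Fn1 in the Sfrp2 and Aldh1a3 cluster (the small Kit and Il17a cluster had 9901 CPM of Fn1 in Utx-cKO and 27143 CPM in WT), Postn in the Lhx2 and Tbx1 cluster at 50400 CPM in Utx-cKO and 50070 CPM in WT, and Tnc in the Lef1 and Inhba cluster of Utx-cKO at 4448 CPM.

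The pattern of each gene over the 16 clusters, pooled over sections, was compared with that of 396 other genes as Pearson's r of log2(CPM + 10). Thbs2 and Fn1 resembled each other at r = 0.90. Both were most like Mmp2, a gelatinase of the matrix, at r = 0.94 for Thbs2 and r = 0.97 for Fn1. Next for Thbs2 came Htra1 and Mmp27, both proteases, at 0.92 and 0.91, and for Fn1 came Pdpn (podoplanin) and Lum (the collagen-binding proteoglycan lumican), at 0.97 and 0.95. Postn was most like Mitf, a transcription factor known from pigment cells, at 0.86, then Smad7, an inhibitor of TGF-beta signalling, at 0.79 and Phlda1 at 0.77. Tnc was most like Kdm1a and Kmt2a, a histone demethylase and a histone methyltransferase, at 0.86 and 0.84, and Lef1, a transcription factor of Wnt signalling, at 0.84. Tnc and Fn1 shared little, at r = 0.13. These values describe 16 clusters that differ in depth and size.

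Tnc was also the most patchy of the 4. When about the same number of transcripts was drawn for each gene, at most 1485, the fullest 5% of 50 µm tiles held 58.6% of Tnc in Utx-cKO and 69.0% in WT. For Postn the share was 52.5% in Utx-cKO and 54.5% in WT, for Fn1 43.0% in Utx-cKO and 45.7% in WT, and for Thbs2 41.5% in Utx-cKO and 42.3% in WT. A draw from the whole panel gave 39.1% in Utx-cKO and 38.2% in WT, so Thbs2 was spread little more unevenly than the panel.

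Postn had its highest level in the Lhx2 and Tbx1 cluster of the follicle epithelium, and there the sections were close. Cells of the Lhx2 and Tbx1 cluster had 50400 CPM in Utx-cKO and 50070 CPM in WT, a log2 ratio of 0.01 (-0.03 to 0.05). 69.2% of these cells in Utx-cKO and 78.0% in WT held at least 1 Postn transcript. The strips ranged over 41192 to 78063 CPM in Utx-cKO and 37168 to 60924 CPM in WT, so strips of 1 section differed far more than the sections. In the Krt17 and Lhx2 cluster Postn read 36822 CPM in Utx-cKO and 36878 CPM in WT. The upper hair follicle-like cluster was low, with 1965 CPM in Utx-cKO and 2817 CPM in WT. That low cluster made up 7.10% of kept cells in Utx-cKO and 3.29% in WT, and the follicle clusters as a whole had 30666 CPM in Utx-cKO against 38576 CPM in WT.

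Outside the follicle clusters, the Postn ratio differed between epithelial clusters. The cluster led by Dct and Sostdc1 held most of these counts, 2200 in Utx-cKO and 1863 in WT, and had 10379 CPM in Utx-cKO and 9228 CPM in WT, a log2 ratio of 0.17 (0.08 to 0.26). Its strips overlapped, at 5832 to 24359 CPM in Utx-cKO and 6725 to 12707 CPM in WT. The sebocyte-like cluster was lower in Utx-cKO, at 967 CPM against 1405 CPM in WT, a ratio of -0.54 (-0.80 to -0.28). Its strips overlapped, at 232 to 1242 CPM in Utx-cKO and 706 to 1940 CPM in WT. The median gene there stood at -0.16, and 19.9% of 261 genes were at least 1.5 times lower in Utx-cKO. In the suprabasal keratinocyte-like cluster Postn had 5908 CPM in Utx-cKO (1374 transcripts in 3132 cells) and 1645 CPM in WT (544 transcripts in 3449 cells). The log2 ratio was 1.84 (1.70 to 1.99). The Utx-cKO strips had 3390, 9537, 3275 and 5041 CPM, against 1186, 2351, 1537 and 1546 CPM in the WT strips. Without the second Utx-cKO strip, the highest, the ratio was 1.25. Every Utx-cKO strip lay above every WT strip, which held for 3.26% of the 307 genes compared in that cluster. Tnc, with a log2 ratio of 0.83 (0.43 to 1.23), and Fn1, with 0.82 (0.48 to 1.17), also passed the fold of 1.5 there, as did 12.4% of genes, but their strips overlapped. Thbs2 stood at 0.43 (0.18 to 0.68). The granular keratinocyte-like cluster had little Postn, 821 CPM in Utx-cKO and 358 CPM in WT. Its strips did not overlap either, at 471 to 1499.9 CPM in Utx-cKO and 293 to 412 CPM in WT. There 9.78% of the 225 genes compared were at least 1.5 times higher in Utx-cKO. 2.22% had every Utx-cKO strip above every WT strip.

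Some cells of the suprabasal-like cluster lay beside follicles, so the comparison was repeated by marker counts and position. This was done after the cluster's values had been seen. Cells of that cluster were not left out, so the repeat is not independent of it. Keratinocytes (cells with at least 5 transcripts of Krt5, Krt15 and Col17a1) that lay outside the follicle clusters and over 50 µm from any of their cells numbered 1478 in Utx-cKO and 1999 in WT. Their Postn level was 5574 CPM in Utx-cKO and 1304 CPM in WT, a log2 ratio of 2.10 (1.89 to 2.30), or 4.27-fold. 28.1% of the Utx-cKO cells (25.8 to 30.4%) held a Postn transcript, against 9.05% of the WT cells (7.83 to 10.4%), and the median cell had 78 transcripts in Utx-cKO and 91 in WT. The strips had 3018, 8408, 2575 and 4248 CPM in Utx-cKO, and 994, 1677, 1344 and 674 CPM in WT. The second Utx-cKO strip was highest by far, and the ranges of the sections did not meet.

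Of 266 genes compared in these cells, none had a larger ratio than Postn. 9.77% were at least 1.5 times higher in Utx-cKO and 1.88% had all Utx-cKO strips above all WT strips. Over nuclei alone the Postn ratio was 2.00 (1.75 to 2.26), and without the second Utx-cKO strip it was 1.38. Of the 11 fibroblast markers on the panel, 9 were lower and 2 higher in Utx-cKO in these cells. The 11 fibroblast markers on the panel summed to 6763 CPM in Utx-cKO and 13713 CPM in WT, and Igfbp3 made up most of the gap, at 2671 CPM in Utx-cKO and 7610 CPM in WT. Without Igfbp3 the sum was 4092 CPM in Utx-cKO and 6104 CPM in WT. Mmp2 and Mfap4 had ratios of -0.09 and -0.17 with intervals across 0, and the higher ones, Sfrp2 and Cxcl12, rested on at most 12 transcripts per section. In the suprabasal-like cluster the Postn ratio was 2.01 (1.83 to 2.18) in cells over 15 µm from non-epithelial cells. In cells within 15 µm of them it was 1.37 (1.09 to 1.66). Apart from such distances, the part of fibroblast transcripts in the Postn result was not tested. Lhx2, a follicle marker, rested on 18 transcripts in Utx-cKO and 25 in WT. Krt17, a keratin of follicles and of activated epidermis, was higher, with 14162 CPM in Utx-cKO and 8388 CPM in WT, and its part in the result was not tested. Kdm6a in these cells read 3015 CPM in Utx-cKO and 2951 CPM in WT.

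Cells picked by Krt1 alone gave a similar ratio with less clear separation. Those with at least 3 Krt1 transcripts, which mark cells leaving the basal layer, had 2978 CPM of Postn in Utx-cKO and 796 CPM in WT, a log2 ratio of 1.90 (1.66 to 2.15). Their strips overlapped, at 771 to 5105 CPM in Utx-cKO and 475 to 1023 CPM in WT. Nearer the follicles the level was higher and the ratio smaller. Suprabasal-like cells within 25 µm of follicle-cluster cells had 7927 CPM in Utx-cKO and 2961 CPM in WT, a ratio of 1.42, and those over 50 µm away had 5732 CPM in Utx-cKO and 1048 CPM in WT, a ratio of 2.45.

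**Figure D2:**
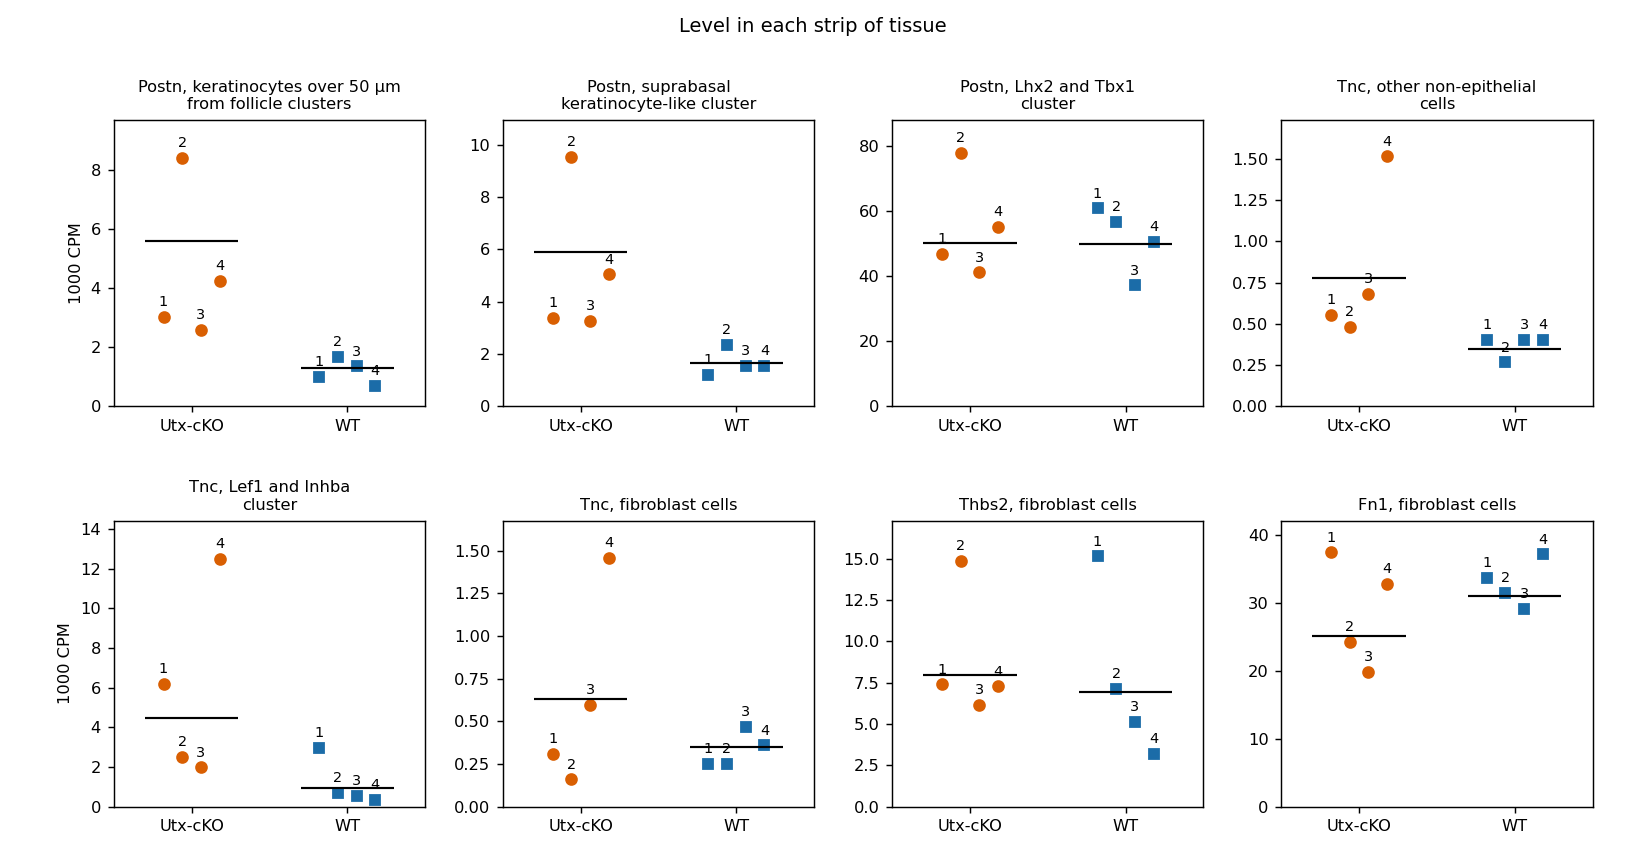
Level in each strip of tissue, in units of 1000 CPM, with Utx-cKO left of WT; each point is 1 numbered strip and the black line the level over the whole section. Postn in keratinocytes away from follicles (2575 to 8408 CPM in Utx-cKO, 674 to 1677 CPM in WT) and Tnc in other non-epithelial cells do not overlap between sections, whereas Tnc, Thbs2 and Fn1 in fibroblasts do.

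Tnc had its highest WT level in follicle epithelium. The Lhx2 and Tbx1 cluster had 2163 CPM in Utx-cKO and 2411 CPM in WT, a log2 ratio of -0.16 (-0.34 to 0.02). The upper hair follicle-like cluster went the other way, with 550 CPM in Utx-cKO and 255 CPM in WT, a ratio of 1.11 (0.38 to 1.91) from 82 transcripts in Utx-cKO and 19 in WT. Its strips did not overlap, at 442 to 640 CPM in Utx-cKO and 61.0 to 332 CPM in WT. Among the 246 genes compared in that cluster, 19.1% were at least 1.5 times higher in Utx-cKO. 2.85% of them had every Utx-cKO strip above every WT strip. The Lhx2 and Tbx1 cluster alone supplied 27.0% of the Tnc counts in Utx-cKO cells and 42.0% in WT cells. Within that cluster Tnc was denser near the Lef1 and Inhba cells. Follicle cells under 50 µm from such a cell had 2742 CPM in Utx-cKO and 3336 CPM in WT, and those at 50 to 100 µm had 1620 CPM in Utx-cKO and 1932 CPM in WT. Postn ran the other way in the same cells, with 40162 CPM in Utx-cKO and 43274 CPM in WT under 50 µm, and 56091 CPM in Utx-cKO and 54368 CPM in WT at 50 to 100 µm.

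In the Lef1 and Inhba cluster Tnc differed most. It had 4448 CPM in Utx-cKO (126 transcripts in 484 cells) and 942 CPM in WT (24 transcripts in 359 cells), a log2 ratio of 2.24 (1.60 to 2.93). 16.3% of these cells in Utx-cKO and 5.57% in WT held a Tnc transcript. 9.35% of the 107 genes compared there passed the fold of 1.5 upwards, and none of the other 3 members did. The Utx-cKO strips had 6188, 2499, 1972 and 12508 CPM and the WT strips 2955, 704, 545 and 347 CPM, each from few transcripts. The first WT strip lay among the Utx-cKO values, so the ranges overlapped. Without the fourth Utx-cKO strip the ratio was 1.64, and without the first WT strip 2.99. The fibroblast markers of that cluster summed to 176010 CPM in Utx-cKO and 161611 CPM in WT. In the fibroblast-like clusters they summed to 167809 CPM in Utx-cKO and 151769 CPM in WT, so the cluster was as rich in them. It stayed outside the fibroblast set because only 2 of the markers were among its leading genes.

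The clusters named neither epithelial nor fibroblast-like were the macrophage-like, the adipocyte-like, the Lef1 and Inhba and 3 further unnamed clusters. Over all their cells, which include the marker-rich Lef1 and Inhba cells, Tnc had 778 CPM in Utx-cKO and 345 CPM in WT. The log2 ratio was 1.17 (0.96 to 1.38). Its strips had 552, 481, 683 and 1516 CPM in Utx-cKO and 403, 266, 401 and 403 CPM in WT. The fourth Utx-cKO strip was far above the rest, yet the other 3 also exceeded every WT strip, and without it the ratio was 0.82. Such a separation held for 3.06% of the 457 genes compared, and 31.3% of them were at least 1.5 times higher. Upper follicle markers in the same cells summed to 1013 CPM in Utx-cKO and 471 CPM in WT and granular markers to 4385 CPM in Utx-cKO and 2502 CPM in WT, and their part in the result was not tested. Of the single clusters, the one led by Myh11 and Vwf held the most Tnc transcripts, 147 in Utx-cKO and 123 in WT, and had a ratio of 0.34 (-0.02 to 0.69). The Lef1 and Inhba cluster gave 126 of the 473 Tnc transcripts of these cells in Utx-cKO and 24 of the 305 in WT. The adipocyte-like cluster read 181 CPM in Utx-cKO and 192 CPM in WT. The macrophage-like one had 467 CPM in Utx-cKO and 184 CPM in WT, a ratio of 1.35 (0.77 to 1.94), and the cluster led by Slc16a3, a lactate transporter, and Cryab, a small heat-shock protein, had 625 CPM in Utx-cKO and 301 CPM in WT. The strips of both overlapped. The first had 148 to 899 CPM in Utx-cKO and 104 to 330 CPM in WT. The second had 138 to 1137 CPM in Utx-cKO and 296 to 364 CPM in WT. The first rested on 81 Tnc transcripts in Utx-cKO and 38 in WT, the second on 84 in Utx-cKO and 75 in WT. At least 1.5 times higher in Utx-cKO were 22.8% of 346 genes compared in the first and 7.41% of 243 in the second.

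In fibroblast-like cells Tnc was the 1 member past the fold of 1.5, with 631 CPM in Utx-cKO and 352 CPM in WT and a log2 ratio of 0.84 (0.54 to 1.15). 12% of the 418 genes compared in fibroblasts were that much higher and 2.39% that much lower. The strips had 309, 159, 596 and 1460 CPM in Utx-cKO and 250, 251, 467 and 358 CPM in WT. The second Utx-cKO strip was the lowest of all and the fourth the highest. Without strip 4 of Utx-cKO the ratio was 0.39, and over nuclei alone it was 0.37 (-0.02 to 0.76). The fourth strip also carried a band of Tnc deep in the tissue. Between 100 and 200 µm from the nearest keratinocyte it had 1920 CPM, from 206 transcripts, whereas the other 3 Utx-cKO strips had 184 to 471 CPM and the 4 WT strips 89.8 to 303 CPM. In epithelial cells as a whole Tnc was level, at 725 CPM in Utx-cKO and 733 CPM in WT, and none of the 4 genes passed the fold there, against 16% of 469 genes higher and 3.2% lower.

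**Figure D3:**
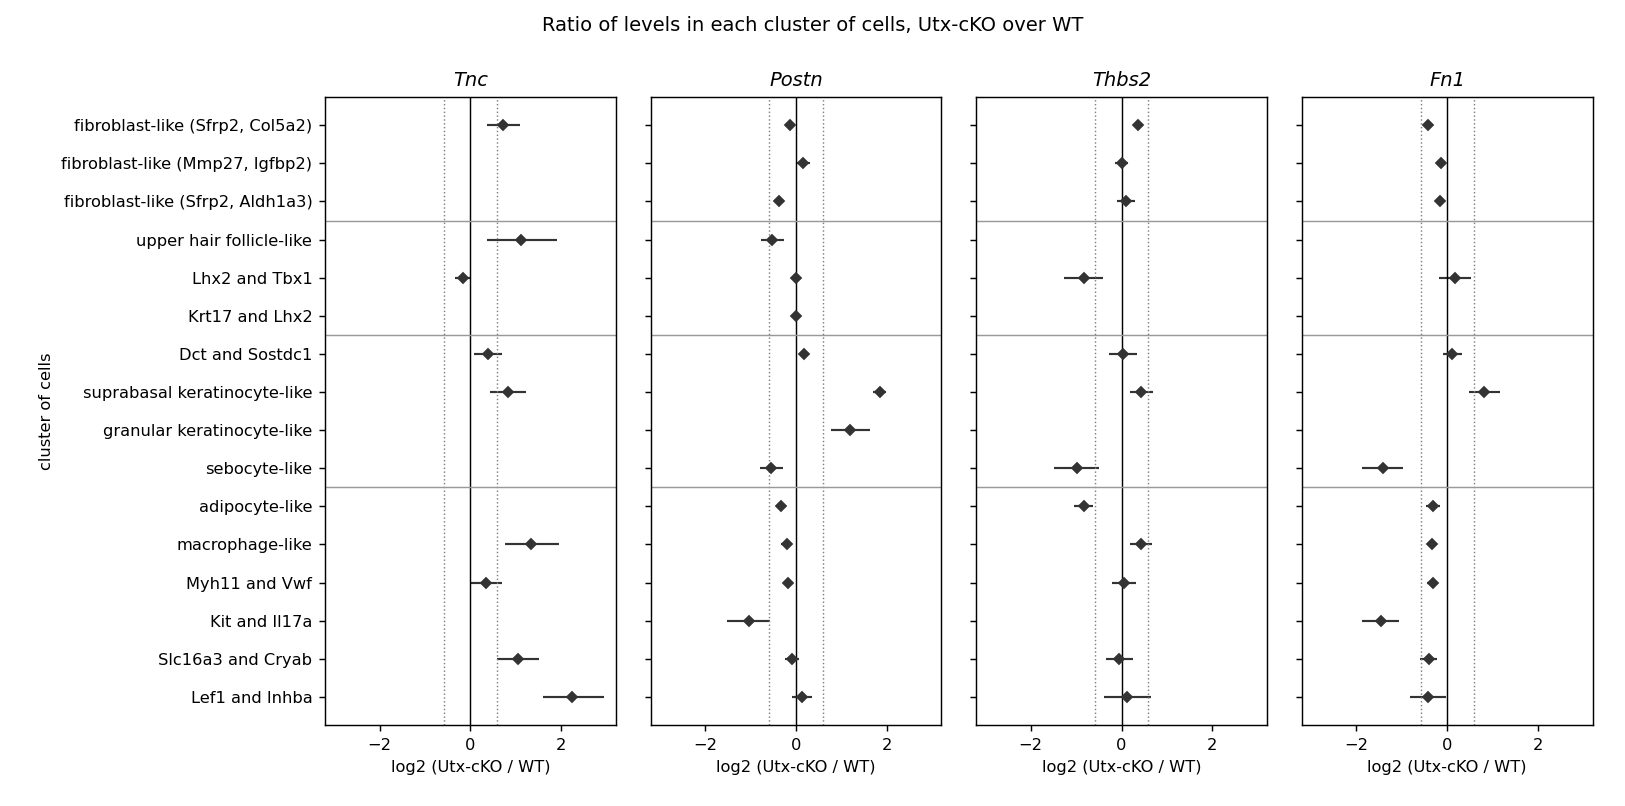
Log2 ratio of levels, Utx-cKO over WT, in each cluster of cells for each gene; bars are exact 95% intervals for counting error, dotted lines mark a fold of 1.5 either way, and clusters with under 100 transcripts of the gene over both sections are left empty. The ratios of Postn are near 0 in the Lhx2 and Tbx1 cluster and highest in the suprabasal keratinocyte-like cluster, while those of Tnc are highest in the Lef1 and Inhba cluster.

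Fn1 was a gene of the deep fibroblasts. The fibroblast-like cluster led by Sfrp2 and Aldh1a3, which lay furthest from keratinocytes among the 3 at medians of 186 µm in Utx-cKO and 280 µm in WT, had 47905 CPM in Utx-cKO and 53712 CPM in WT. The cluster led by Sfrp2 and Col5a2 had 22353 CPM in Utx-cKO and 30100 CPM in WT, and the one led by Mmp27 and Igfbp2, nearest the epithelium, 17657 CPM in Utx-cKO and 19324 CPM in WT. All 3 were lower in Utx-cKO, and the fibroblast cells together had 25107 CPM in Utx-cKO and 31021 CPM in WT. That is a log2 ratio of -0.31 (-0.34 to -0.27). It did not hold at a stricter score. With a quality score of at least 30 the ratio in fibroblasts was -0.02 (-0.07 to 0.02), and over whole sections it was -0.12 in place of -0.41. The share of Fn1 transcripts that reached a score of 30 was 82.2% in Utx-cKO and 72.8% in WT, whereas for the whole panel it was 77.0% in Utx-cKO and 83.1% in WT.

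The strips of Fn1 in fibroblasts overlapped as well. They had 37413, 24260, 19799 and 32814 CPM in Utx-cKO and 33715, 31426, 29139 and 37122 CPM in WT. Utx-cKO strips 2 and 3 lay below every WT strip, and the first above every one. Without the third Utx-cKO strip the ratio was 0.0048. Fn1 was also the gene least confined to cell outlines. 69.3% of it in Utx-cKO and 64.6% in WT lay in a segmented cell, and of that part 38.0% in Utx-cKO and 35.1% in WT lay over a nucleus, against 48.8% in Utx-cKO and 46.0% in WT for the panel. Within epithelium Fn1 was scarce, at 654 CPM in Utx-cKO and 657 CPM in WT.

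Thbs2 was spread evenly over the fibroblast clusters. It had 8045 CPM in Utx-cKO and 6274 CPM in WT in the Sfrp2 and Col5a2 cluster, 8236 CPM in Utx-cKO and 8228 CPM in WT in the Mmp27 and Igfbp2 cluster, and 7119 CPM in Utx-cKO and 6663 CPM in WT in the Sfrp2 and Aldh1a3 cluster. The fibroblast cells together had 7950 CPM in Utx-cKO and 6936 CPM in WT, a log2 ratio of 0.20 (0.12 to 0.27). As mean counts per cell the ratio was -0.20 (-0.27 to -0.12), the median Utx-cKO cell of the section holding fewer transcripts. Adipocyte-like cells had less in Utx-cKO, 2488 CPM against 4441 CPM in WT, a ratio of -0.84 (-1.05 to -0.62). Their strips overlapped, at 1748 to 4878 CPM in Utx-cKO and 1939 to 6617 CPM in WT. The Lhx2 and Tbx1 cluster had 340 CPM in Utx-cKO against 601 CPM in WT, from 70 transcripts in Utx-cKO and 143 in WT. There too the strips overlapped, at 219 to 1048 CPM in Utx-cKO and 322 to 886 CPM in WT. In these clusters 4.96% of 242 genes and 7.39% of 257 genes were at least 1.5 times lower in Utx-cKO.

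Strips at matching extremes were found in both sections. In fibroblasts Thbs2 reached 14853 CPM in the second Utx-cKO strip and 15134 CPM in the first WT strip, whereas the other strips had 6167 to 7386 CPM in Utx-cKO and 3189 to 7121 CPM in WT. The same pair of strips had the lowest fibroblast Postn of their sections, 9177 CPM in Utx-cKO and 8742 CPM in WT, and the highest Postn in the Lhx2 and Tbx1 cluster, 78063 CPM in Utx-cKO and 60924 CPM in WT. The highest strip of fibroblast Postn was the fourth in Utx-cKO, at 35490 CPM, and the third in WT, at 34604 CPM. Fibroblast Postn over whole sections read 26201 CPM in Utx-cKO and 25737 CPM in WT, a ratio of 0.03 (-0.01 to 0.07), but -0.36 without the third Utx-cKO strip and 0.48 without the third WT strip. The spread among strips of 1 section far exceeded the difference between sections.

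Distance from the nearest keratinocyte separated the 4 genes. It was measured from each transcript to the centre of the keratinocyte, so transcripts inside keratinocytes count as near. The median Tnc transcript lay 9.18 µm away in Utx-cKO and 3.86 µm in WT, and the median Fn1 transcript 121 µm in Utx-cKO and 116 µm in WT, while the panel as a whole stood at 19.0 µm in Utx-cKO and 38.7 µm in WT. Postn had 16.2 µm in Utx-cKO and 49.0 µm in WT, and Thbs2 43.3 µm in Utx-cKO and 54.9 µm in WT. Within 50 µm lay 72.1% of Tnc in Utx-cKO and 79.9% in WT. For Postn the share was 62.2% in Utx-cKO and 50.3% in WT, for Thbs2 54.6% in Utx-cKO and 47.4% in WT, and for Fn1 30.0% in Utx-cKO and 26.9% in WT. The share of the panel was 65.9% in Utx-cKO and 53.5% in WT. Tnc thus differed against the direction of the panel, by -7.74 percentage points (-10.6 to -4.81), and the other genes with it. Without the third WT strip the Tnc difference was -1.02 points. Postn differed by 11.9 points, and the panel by a similar amount. The strips overlapped for every gene, with Postn at 53.4 to 81.7% in Utx-cKO and 42.7 to 80.7% in WT.

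**Figure D4:**
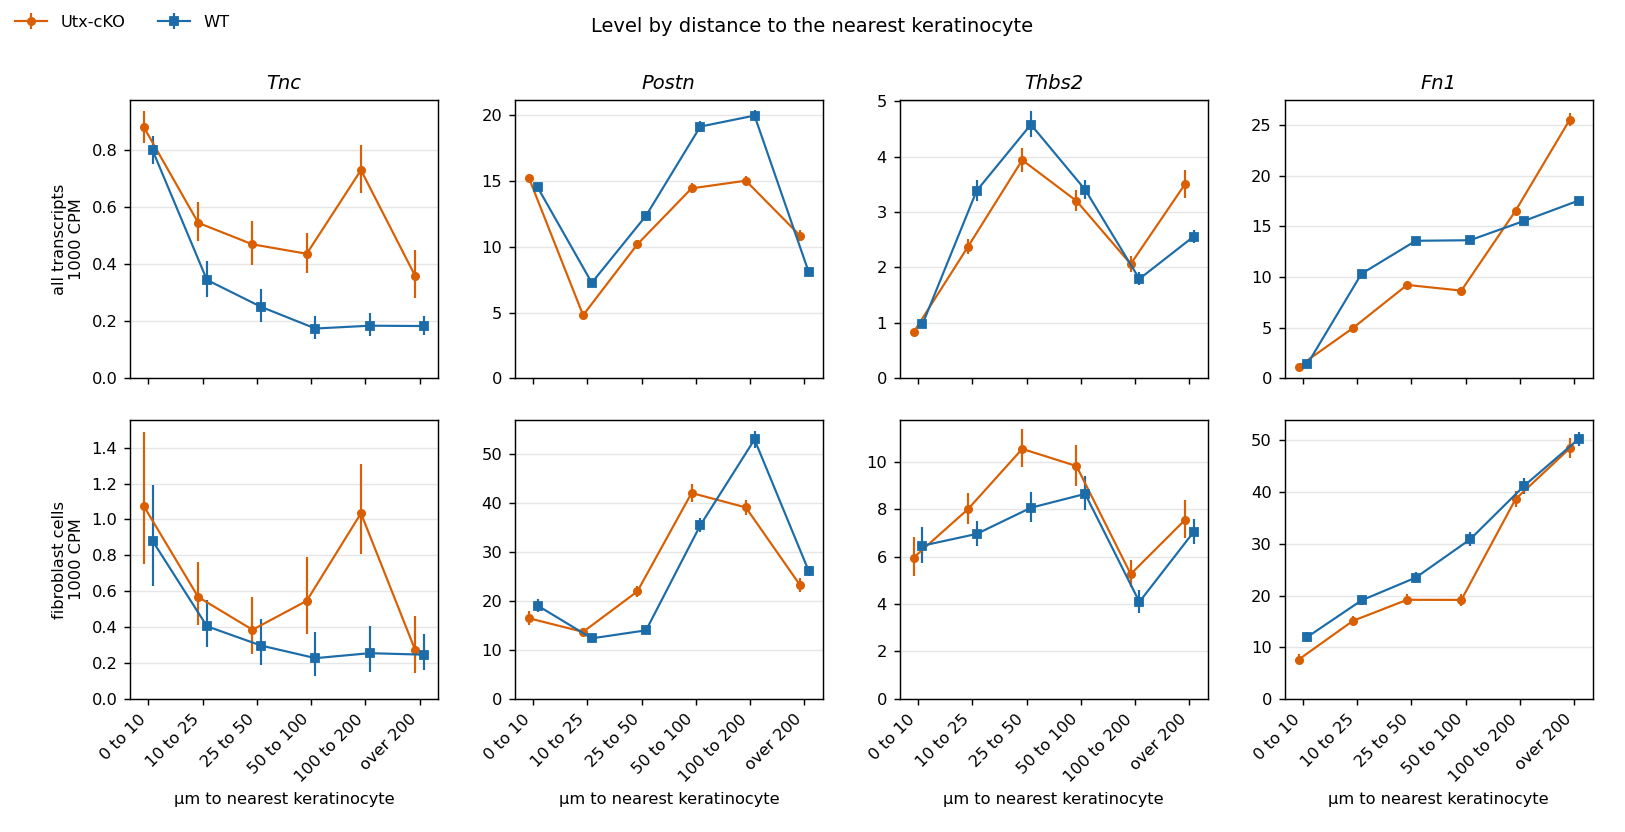
Level of each gene against the distance to the nearest keratinocyte in µm, for all transcripts (upper row) and for fibroblast-like cells (lower row), in units of 1000 CPM, Utx-cKO as circles and WT as squares, with exact 95% Poisson intervals. Distance to the centre of the keratinocyte is measured from each transcript in the upper row and from the centre of the fibroblast in the lower row. Fn1 in fibroblasts is lowest within 10 µm and highest beyond 200 µm in both sections, and Postn in fibroblasts peaks beyond 50 µm. Over all transcripts, Postn at 100 to 200 µm is highest in the third strip of each section. The Tnc peak of Utx-cKO at 100 to 200 µm comes mainly from the fourth strip.

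Among fibroblasts, where distance was measured from the centre of the cell, position ordered Fn1 most plainly. In Utx-cKO it had 7599 CPM within 10 µm of a keratinocyte, 19151 CPM at 50 to 100 µm and 48496 CPM beyond 200 µm. In WT the values at those distances were 11977, 30852 and 50267 CPM, with a higher level at each step. Utx-cKO was lower in each distance bin, and the gap did not widen steadily towards the epithelium. The fibroblast Fn1 difference as a whole was -0.02 at a quality score of 30, and the bins were not recomputed at that score. Postn in fibroblasts peaked at 50 to 100 µm in Utx-cKO, at 42089.6 CPM, and at 100 to 200 µm in WT, at 53029.8 CPM. It was lowest at 10 to 25 µm in both sections, with 13704 CPM in Utx-cKO and 12376 CPM in WT. The fibroblast bins were not split by strip. Over all transcripts at 100 to 200 µm, Postn had 6149, 4030, 30755 and 12351 CPM in Utx-cKO strips 1 to 4. In the WT strips it had 4927, 9725, 54893 and 5539 CPM, so the third strip of each section stood highest. Thbs2 in fibroblasts was highest at 25 to 50 µm in Utx-cKO, at 10542 CPM, and at 50 to 100 µm in WT, at 8644 CPM. Tnc in fibroblasts was highest within 10 µm, with 1073 CPM in Utx-cKO and 880.0 CPM in WT, but from only 36 transcripts in Utx-cKO and 41 in WT.

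Fibroblasts beside follicles and beside other epithelium differed in Postn. Within 25 µm of a keratinocyte, those whose nearest keratinocyte belonged to a follicle cluster had 17372 CPM in Utx-cKO and 21148 CPM in WT. Those beside another epithelial cluster had 12779 CPM in Utx-cKO and 9627 CPM in WT. The follicle side was thus higher in both sections, by a wider margin in WT. Segmented outlines can take in transcripts of neighbouring cells, and how much of this fibroblast signal came from the follicle was not tested. For Fn1 the order was the reverse, with 11245 CPM in Utx-cKO and 14448 CPM in WT beside follicles and 13743 CPM in Utx-cKO and 18337 CPM in WT beside other epithelium.

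Other genes of the matrix on the panel differed least in fibroblasts and lay below the typical gene in epithelium. Of 16 collagens, proteoglycans, proteases, receptors and matrix-linked growth factors, 3 passed the fold of 1.5 upwards over whole sections and none downwards, beside 24.4% and 3.16% of all genes. These were Sdc1, the epithelial heparan sulphate proteoglycan syndecan-1, with 5031 CPM in Utx-cKO and 3249 CPM in WT, and the low cytokines Il4 and Il13. The median log2 ratio of the 16 was -0.14, against 0.22 for all genes. In fibroblasts the median was 0.06, against 0.12 for all genes. There Mmp2 had 22822 CPM in Utx-cKO and 18763 CPM in WT, and the collagen VI chain Col6a3 23505 CPM in Utx-cKO and 20561 CPM in WT. In epithelial cells the median was -0.37, against 0.15 for all genes, with Il13 past the fold upwards and Lum and Fgf1 downwards, beside 16% and 3.2% of all genes. Tgfbi, a matricellular relative of periostin, read 7114 CPM in Utx-cKO and 10393 CPM in WT there, and Itga6, the integrin of hemidesmosomes, 4541 CPM in Utx-cKO and 5915 CPM in WT.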

How the data were processed

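For every decoded molecule the deposited tables hold a gene, a position, a segmented cell and a quality score, and, per the file headers, counts per cell. Sections were 5 µm thick and the panel held 480 genes, per the labels; the software for decoding and segmentation was not given in the sources used here. Each count here is the number of transcripts with a deposited quality score of at least 20. Per sample, 2875112 Utx-cKO and 3540184 WT gene transcripts remained. Cells with at least 20 transcripts were clustered (scanpy 1.11.5, 30 components, 15 neighbours, Leiden resolution 1) without the 4 genes; numpy 2.4.6, pandas 2.3.3 and scipy 1.17.1 did the rest. A cluster took a cell type name from at least 3 fixed markers among its 10 leading genes. Levels are transcripts per 1000000 panel transcripts (CPM), with exact Poisson, binomial or ratio intervals at 95%, which cover counting error only. Genes with under 200 transcripts over both sections (100 within a set of cells) were not compared. A fold of 1.5 was the rule of size, since 1 section per group allows no test. Strips are pieces of tissue of at least 1000 cells linked within 60 µm. Named were the 4 genes, the 3 genes most alike to each in log2(CPM + 10) over clusters among genes of at least 1000 transcripts, and a list of 16 matrix genes; markers were named where a value touched a result. The members, lists and cell sets were chosen with earlier results of these data known. Alternatives were the score, the total, the median ratio, nuclei, means per cell, depth, resolution and strips left out. The ratio script was tested on simulated data.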

Additional observations from a re-analysis of the deposited data

Results flagged for a closer look

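Tnc and Postn differed in opposite directions in the 2 sets of epithelial clusters. In the follicle clusters Tnc had a log2 ratio of -0.32 (1392 CPM in Utx-cKO, 1734 CPM in WT), and in the other epithelial clusters 0.45 (450 CPM in Utx-cKO, 329 CPM in WT). For Postn the ratio was -0.33 in the follicle clusters (30666 CPM in Utx-cKO, 38576 CPM in WT) and 0.47 in the other epithelial clusters (4270 CPM in Utx-cKO, 3079 CPM in WT). Within the follicle set Tnc was not uniform: the upper hair follicle-like cluster had 550 CPM in Utx-cKO and 255 CPM in WT, a ratio of 1.11. Postn was level in the Lhx2 and Tbx1 cluster, at a ratio of 0.0095, and in the Krt17 and Lhx2 cluster, at -0.0022. In the upper hair follicle-like cluster, where it was low, the ratio was -0.52. Each interval of the 4 set ratios for counting error lay on 1 side of 0, but the strips of the sections overlapped for all 4. The difference between the sets was not tested, and the follicle set held more upper hair follicle-like cells in Utx-cKO, 7.10% of kept cells against 3.29% in WT.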

How the results depend on the processing

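Of 151 alternatives over 20 results, 88 stayed within the counting interval, 59 moved beyond it and 4 reversed. A reversal is a change of sign where the reported interval excluded 0; 9 of the 59 also changed sign, from a reported value whose interval held 0. One section per group and few Tnc transcripts limit all values. Extra clusterings, equal cluster shares and the checks of cell sets were chosen after seeing the data. Values are log2 ratios, for Tnc, Postn, Thbs2 and Fn1 where 4 are given. Over whole sections, a score of 30 gave 0.019 for Thbs2, a reversal, and -0.12 for Fn1; the total without the 10 most abundant genes gave -0.20 for Postn, -0.19 for Thbs2 and -0.48 for Fn1; subtracting the median ratio gave 0.45, -0.35, -0.34 and -0.63; transcripts in cells gave 0.48, -0.15, -0.18 and -0.49. In fibroblasts, nuclei gave 0.37 for Tnc, 0.21 for Postn and -0.38 for Fn1; means per cell gave 0.45, -0.37, -0.20 (a reversal) and -0.70; subtracting the median gave -0.095 for Postn, 0.076 for Thbs2 and -0.43 for Fn1; a score of 30 gave 0.36 for Thbs2 and -0.022 for Fn1. Resolution 0.5 gave 1.19 for Tnc, and resolution 2 gave -0.044 for Postn and -0.24 for Fn1. For fibroblast Postn, cells of at least 40 transcripts gave 0.082, thinning 0.16 and equal cluster shares -0.14; clustering with the 4 genes gave -0.022 for Postn and -0.24 for Fn1. In epithelial cells, means per cell gave -0.26, -0.40, -0.49 and -0.25; subtracting the median gave -0.16 for Tnc, -0.29 for Postn and -0.15 for Fn1; equal cluster shares gave 0.16 for Tnc, 0.10 for Postn, a reversal, and -0.039 for Thbs2. There a score of 30 gave -0.12 for Postn, -0.024 for Thbs2 and 0.29 for Fn1, the reduced total -0.18 for Postn, and nuclei 0.49 and thinning 0.26 for Fn1. Means per cell gave 1.48 for suprabasal-like Postn, 0.62 for Tnc in other non-epithelial cells and 1.86 for Postn in keratinocytes away from follicles, where limits of 25 and 100 µm gave 1.72 and 2.92. The share near keratinocytes differed in fibroblasts by -17.1 points for Tnc, 7.15 for Postn, 4.45 for Thbs2 and 0.869 for Fn1, within 25 µm by 10.8 for Postn, 4.13 for Thbs2 and 1.56 for Fn1, and within 100 µm by 7.85 for Postn and -0.436 for Fn1, a reversal. The cause of these changes was not tested.

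Leaving out 1 strip at a time gave, over whole sections, 0.39 to 0.92 for Tnc, -0.31 to 0.29 for Postn, -0.39 to 0.014 for Thbs2 and -0.57 to -0.21 for Fn1. In fibroblasts it gave 0.39 to 1.27, -0.36 to 0.48, -0.077 to 0.52 and -0.42 to 0.0048, and in epithelial cells -0.17 to 0.18, -0.35 to 0.0073, -0.63 to 0.053 and -0.41 to 0.79. It gave 1.25 to 2.09 for suprabasal-like Postn, 1.64 to 2.99 for Tnc in the Lef1 and Inhba cluster, 0.82 to 1.31 for Tnc in other non-epithelial cells and 1.38 to 2.37 for Postn in keratinocytes away from follicles. The near shares ranged over -13.2 to -1.02 points for Tnc, 4.38 to 19.7 for Postn, -2.48 to 15.6 for Thbs2 and -7.69 to 12.4 for Fn1. The third strips of either section set most of these extremes.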
